A study of Homo sapiens with 16 samples.

Results

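The 10 genes described here serve meiotic recombination or build the axis of meiotic chromosomes: DMC1, MND1 and PSMC3IP (strand exchange), MSH5 and MSH4 (crossover formation), HORMAD1 and SYCP2 (chromosome axis), and STAG3, REC8 and SMC1B (meiotic cohesin). They were picked by name because MYBL1 (A-MYB) drives meiotic genes in the mouse testis, with earlier results of these data known. They were matched by gene symbol to 6 tables of the authors' comparisons. Of the 10, 9 were among the 19315 genes listed in at least 1 table, and SMC1B was in none. Transcripts were measured by paired-end RNA sequencing in U2OS, derived from a human osteosarcoma, and in HCT116, derived from a human colorectal carcinoma. In each line the groups were the double knockdown (siRNAs against MYBL1 and MYBL2 together), siMYBL1 alone, siMYBL2 alone, and siCtrl, an siRNA with no human target. RNA was taken 48 h after treatment, and each of the 8 groups had 2 libraries. siRNAs lower a transcript without removing its gene, so every knockdown group kept some MYBL1 and MYBL2 RNA.

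In meiosis, cells break their own DNA and repair the breaks against the homologous chromosome. DMC1 coats the broken ends and searches for the partner, helped by the MND1-PSMC3IP pair, and MSH4-MSH5 holds the joined intermediates that become crossovers. The work takes place on a proteinaceous axis of cohesin, HORMAD1 and SYCP2. These genes are best known from testis and ovary. Cultured tumour lines divide by mitosis, where paralogs such as RAD21 and STAG2 do the corresponding work.

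MSH5 and DMC1 fell after the double knockdown in U2OS, and PSMC3IP fell after the double knockdown in HCT116. These were the 3 values called among the 39 that the tables list for these genes, and 0 were called higher. In the U2OS double knockdown 2 of the 8 listed genes were called lower, where 6.06% of all 16803 genes listed were called lower and 12.6% were called in either direction. In the HCT116 double knockdown 1 of the 4 listed genes was called lower, against 4.12% lower and 6.95% in either direction over 12885 genes. With 8 or 4 genes listed, nothing is read from these counts about the genes as a group. "Called" means an adjusted p under 0.05 in the authors' DESeq2 Wald test with Benjamini-Hochberg adjustment.

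After single knockdowns DESeq2 called 0 of the genes. For siMYBL1 in U2OS, 0 of 8 were called and 3 had an unadjusted p under 0.05, with 5.71% of all genes called. For siMYBL2 in U2OS, 0 of 8 were called and 1 had an unadjusted p under 0.05, with 5.2% of all genes called. For siMYBL1 in HCT116, 0 of 7 were called and 0 had an unadjusted p under 0.05, with 0.26% of all genes called. For siMYBL2 in HCT116, 0 of 4 were called and 0 had an unadjusted p under 0.05, with 1.13% of all genes called. Over all genes, 2489 of 14763 had an unadjusted p under 0.05 in U2OS siMYBL1 and 2212 of 15478 in U2OS siMYBL2. In HCT116 these were 791 of 17323 after siMYBL1 and 1080 of 13387 after siMYBL2. The median log2 fold change of the listed genes was -0.44, -0.21 and 0.016 in U2OS after the double knockdown, siMYBL1 and siMYBL2, and -0.44, 0.016 and -0.21 in HCT116. Over all genes listed the medians lay between -0.017 and 0.019.

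Each target was called lower in every group that received its siRNA. In the authors' deposited tables the MYBL2 log2 fold change was -4.53 in the U2OS double knockdown, -4.47 in U2OS siMYBL2, -3.33 in the HCT116 double knockdown and -3.47 in HCT116 siMYBL2. The MYBL1 log2 fold change in the authors' deposited tables was -1.20 in the U2OS double knockdown, -0.98 in U2OS siMYBL1, -1.85 in the HCT116 double knockdown and -1.67 in HCT116 siMYBL1. MYBL1 RNA thus stood at 43.5% of siCtrl in the U2OS double knockdown and 50.7% in U2OS siMYBL1, and at 27.8% in the HCT116 double knockdown and 31.4% in HCT116 siMYBL1. Of 7 epithelial markers, 4 to 6 were listed in the U2OS tables and 7 in each HCT116 table, and of 7 mesenchymal markers, 7 were listed in each U2OS table and 3 or 4 in the HCT116 tables. Of the mesenchymal markers, 4 were called higher and 1 lower in the U2OS double knockdown, 1 higher in U2OS siMYBL1, 1 lower in U2OS siMYBL2 and 0 in either direction in the HCT116 groups. Of the epithelial markers, 1 was called lower in the U2OS double knockdown and 2 higher in the HCT116 double knockdown, with 0 called after single knockdowns. Of all genes listed, 12.6%, 5.71% and 5.2% were called in either direction in U2OS after the double knockdown, siMYBL1 and siMYBL2. In the HCT116 double knockdown the share was 6.95%. The part of these marker shifts in the results on the meiotic genes was not tested. Of 6 blood cell markers, 0 to 2 were listed in any table.

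Late cell cycle genes were called lower in 5 of the 6 knockdown groups. Their list was chosen with earlier results of these data known, so the counts describe these genes only. Of 12 late cell cycle genes, which include CDK1, PLK1 and TOP2A, 12 were called lower in the U2OS double knockdown, 7 in U2OS siMYBL1, 8 in U2OS siMYBL2, 12 in the HCT116 double knockdown, 0 in HCT116 siMYBL1 and 7 in HCT116 siMYBL2. Their median log2 fold change was -2.75, -0.60 and -0.79 in the U2OS groups in that order, and -2.27, -0.24 and -0.67 in the HCT116 groups. In HCT116 siMYBL1 all 12 lay below 0, and 5 had an unadjusted p under 0.05. Of all 17323 genes listed in that comparison, 791 had an unadjusted p under 0.05. Of all genes listed, 6.06% and 4.12% were called lower in the U2OS and HCT116 double knockdowns. After siMYBL1 and siMYBL2, 5.71% and 5.2% of all genes were called in either direction in U2OS, and 0.26% and 1.13% in HCT116. Of 12 G1/S genes, 3, 5 and 2 were called lower in U2OS and 8, 0 and 2 in HCT116, in the same order of groups. CCNE2, a cyclin of S-phase entry, was the 1 gene of that list called higher, after siMYBL2 in U2OS. In bulk RNA, fewer cells at a given stage and less RNA per cell cannot be told apart, and the part of these shifts in the results below was not tested.

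Not all of the genes could be followed in every table. The tables hold no values per library; they give for each gene a base mean, its normalized count averaged across the 4 libraries compared, and they end at a lowest base mean of 14.5, 30.2 and 24.5 in the U2OS double knockdown, siMYBL1 and siMYBL2 tables and of 40.4, 4.46 and 28.4 in the HCT116 tables. MSH5, MND1, PSMC3IP and STAG3 were listed in all 6 tables. HORMAD1 and SYCP2 were listed in the 3 U2OS tables only, and were absent even from the HCT116 siMYBL1 table, the one that reaches lowest. DMC1 and REC8 were listed in the 3 U2OS tables and in the HCT116 siMYBL1 table. MSH4 was listed in the HCT116 siMYBL1 table only.

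The DMC1 base mean of 8.78 and the MSH4 base mean of 18.2 in the authors' deposited HCT116 siMYBL1 table lie below the lowest values listed in the other HCT116 tables, 40.4 and 28.4. The REC8 base mean of 29.03 in that authors' deposited table lies below 40.4 and just above 28.4, and REC8 is in neither of those tables. The tables do not say why a gene is missing; low counts are taken here as the reason, and a missing gene is not called unexpressed.

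Stretches of the promoters of MSH5, DMC1, MND1 and STAG3 are shown because these genes carry or contrast with the called changes and hold letters resembling binding sites of MYB, MuvB or E2F complexes. They come from RefSeq windows of GRCh38.p14 that run from 250 bases before to 50 after a gene's start; 9 of the 10 genes had a window (HORMAD1 had none). Capitals mark matches, on either strand, to a MYB-type motif (CAACNG or TAACNG), to the cell cycle homology region, a MuvB-bound element (TTTGAA), or to an E2F-type motif (TTTGGCGC or TTTCGCGC). The stretches, 5′ to 3′ on the strand of the gene, were:
MSH5 chr6:31739797-31739826, plus strand: agCAACGGcagagggcgggaagTTTGAAcg
MSH5 chr6:31739935-31739964, plus strand: ctctccaatCAACAGCGGTTAggagggcgg
DMC1 chr22:38570161-38570190, minus strand: gTTTGGCGCCAAAccctgtggtCAACGGcg
MND1 chr4:153344643-153344672, plus strand: cggcgtagtcgGCGCCAAAatcaaacgcgt
STAG3 chr7:100177861-100177890, plus strand: gccctgggcgagCCGTTGggattgcgcttg

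The MSH5 window held 3 MYB-type matches, of which the second and the third lie side by side without overlap, and 1 TTTGAA. The DMC1 stretch holds 2 E2F-type matches that overlap on opposite strands, from position -6 to 6 around the start, followed by a MYB-type match at positions 16 to 21. MND1 has 2 RefSeq starts, and its E2F-type match lies at -34 to -27 from 1 of them and at 6 to 13 from the other. STAG3 and REC8, which were called in no table, held 1 and 2 MYB-type matches. The windows of PSMC3IP, MSH4, SYCP2 and SMC1B held none of the motifs. MYB-type letters occurred in 46.2% of 35116 windows and in 4 of the 12 windows of these genes. TTTGAA occurred in 15.2% of all windows and in 1 of the 12. E2F-type letters occurred in 1.15% of all windows and in 3 of the 12, of which the 2 MND1 windows hold the same match. Counted by gene, 4, 1 and 2 of the 9 genes with a window had a match, in that order. A match is a run of letters and not a shown binding site.

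DMC1, the meiotic recombinase, lies on chromosome 22 of hg38 at 38518948 to 38570204 in the authors' deposited tables. Group means were worked out here from each table's base mean and fold change, for 2 libraries on each side. They came to 25.1 normalized counts in the U2OS double knockdown against 93.2 in its siCtrl, 27.8 in U2OS siMYBL1 against 72.2 in siCtrl, and 25.0 in U2OS siMYBL2 against 86.5 in siCtrl. All 3 knockdown means were close to each other and lay under the 3 siCtrl estimates. The siCtrl estimates come from the same 2 libraries, so the 3 comparisons are not independent.

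In the authors' deposited U2OS double knockdown table DMC1 had a log2 fold change of -1.89 (SE 0.65, adjusted p = 0.0349). The authors' deposited tables gave -1.37 for U2OS siMYBL1 (SE 0.58, adjusted p = 0.165) and -1.79 for U2OS siMYBL2 (SE 0.68, adjusted p = 0.115), which were not called. With the standard errors of DMC1, a log2 fold change of 1.79 or more in size was needed for a call in the U2OS double knockdown table, 1.75 in the siMYBL1 table and 2.06 in the siMYBL2 table. DMC1 was thus just past the threshold in 1 table and short of it in the others, with similar estimates. The double knockdown minus siMYBL2 was -0.099 (95% interval -1.95 to 1.75). The shared siCtrl libraries make this interval too wide, so nothing is read from its width.

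In HCT116 DMC1 was near the end of what the tables list. Its group means in the siMYBL1 comparison were 6.20 normalized counts in siMYBL1 against 11.4 in siCtrl. The authors' deposited HCT116 siMYBL1 table gave a log2 fold change of -0.87 (SE 1.28, adjusted p = 0.99997), with a 95% interval from -3.38 to 1.63. The U2OS and HCT116 tables were normalized separately, and the siCtrl levels of the lines, 72.2 to 93.2 and 11.4 normalized counts, were not tested against each other.

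MND1, which binds PSMC3IP and helps the recombinase take up duplex DNA, lies on chromosome 4 at 153344649 to 153415118. The group means of MND1 were 229 normalized counts in the U2OS double knockdown against 329 in siCtrl, 186 in U2OS siMYBL1 against 318, and 339 in U2OS siMYBL2 against 340. In HCT116 they were 280 in the double knockdown against 409 in siCtrl, 296 in siMYBL1 against 390, and 403 in siMYBL2 against 397. In both lines the means of the groups that received siMYBL1 lay under siCtrl, and the siMYBL2 means lay beside it. No difference was called.

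The lowest MND1 value was that of U2OS siMYBL1, a log2 fold change of -0.77 in the authors' deposited table (SE 0.27, unadjusted p = 0.00449, adjusted p = 0.0683). The authors' deposited double knockdown tables gave -0.52 in U2OS (SE 0.27, adjusted p = 0.221) and -0.54 in HCT116 (SE 0.27, unadjusted p = 0.0474, adjusted p = 0.261). The HCT116 siMYBL1 value in the authors' deposited table was -0.40 (SE 0.25, adjusted p = 0.99997). After siMYBL2 the authors' deposited tables gave -0.0022 in U2OS (95% interval -0.49 to 0.48) and 0.022 in HCT116 (95% interval -0.42 to 0.46). The pattern over siRNAs was not called in any table. The double knockdown minus siMYBL2 difference was -0.52 in U2OS (95% interval -1.23 to 0.19) and -0.57 in HCT116 (95% interval -1.26 to 0.13). Both intervals are too wide, because the fold changes share siCtrl libraries.

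PSMC3IP, also called HOP2, is the partner of MND1 and lies on chromosome 17 at 42572310 to 42577831. Its group means in HCT116 were 329 normalized counts in the double knockdown against 556 in siCtrl, 515 in siMYBL1 against 509, and 410 in siMYBL2 against 518. In U2OS they were 480 in the double knockdown against 390 in siCtrl, 388 in siMYBL1 against 380, and 454 in siMYBL2 against 411. The double knockdown mean was thus the lowest of the HCT116 means and the highest of the U2OS means.

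The HCT116 double knockdown lowered PSMC3IP by a log2 fold change of -0.76 in the authors' deposited table (SE 0.22, adjusted p = 0.0120). The authors' deposited tables gave 0.016 for HCT116 siMYBL1 (SE 0.19, adjusted p = 0.99997) and -0.34 for HCT116 siMYBL2 (SE 0.23, adjusted p = 0.846). In U2OS the authors' deposited tables gave 0.30 for the double knockdown (SE 0.23, adjusted p = 0.483), 0.027 for siMYBL1 (SE 0.24, adjusted p = 0.982) and 0.14 for siMYBL2 (SE 0.23, adjusted p = 0.920). The PSMC3IP gene overlaps MLX on the opposite strand at its end. A further gene is labelled here as antisense to PSMC3IP, and its position is not given. Whether the authors' counting used strand is not given in the sources used here, so reads of the 2 strands may not have been told apart. The antisense gene was listed in 3 tables with base means of 9.25 to 26.2 in the authors' deposited tables and was called in 0.

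**Figure D1:**
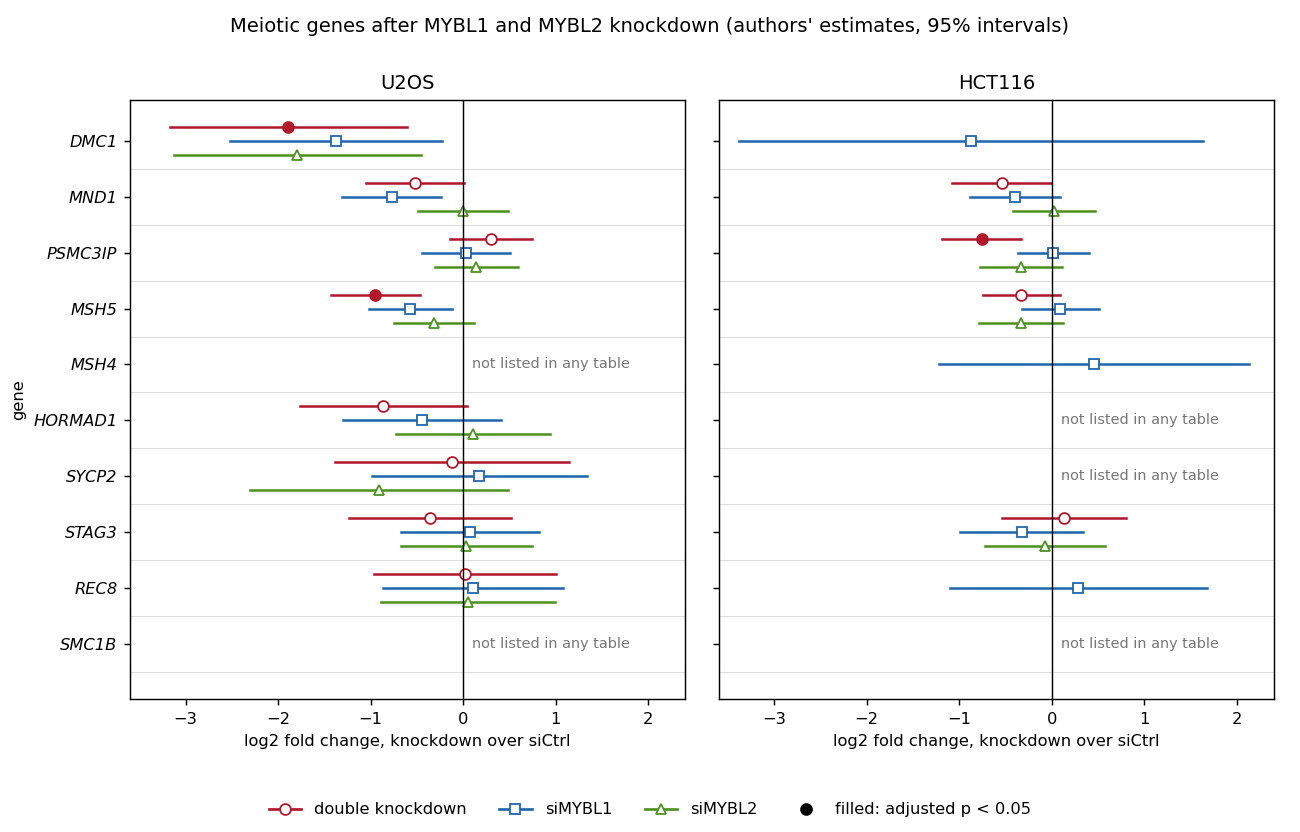
The authors' log2 fold change of each knockdown over siCtrl (horizontal axis) is drawn for each gene (rows) in U2OS and in HCT116, with 95% intervals as lines. Filled markers passed an adjusted p of 0.05: DMC1 at -1.89 and MSH5 at -0.95 in the U2OS double knockdown and PSMC3IP at -0.76 in the HCT116 double knockdown, while all other markers are open.

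MSH5, the partner of MSH4 in the complex that holds crossover intermediates, lies on chromosome 6 at 31739677 to 31762676. Its group means in U2OS were 289 normalized counts in the double knockdown against 558 in siCtrl, 369 in siMYBL1 against 549, and 448 in siMYBL2 against 557. In HCT116 they were 420 in the double knockdown against 528 in siCtrl, 507 in siMYBL1 against 477, and 386 in siMYBL2 against 487. The 3 U2OS knockdown means lay under siCtrl, lowest in the double knockdown, and in HCT116 the siMYBL1 mean lay above siCtrl.

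The U2OS double knockdown lowered MSH5 by a log2 fold change of -0.95 in the authors' deposited table (SE 0.25, adjusted p = 0.00193), to 51.8% of siCtrl. The authors' deposited tables gave -0.57 for U2OS siMYBL1 (SE 0.23, unadjusted p = 0.0122, adjusted p = 0.129) and -0.32 for U2OS siMYBL2 (SE 0.22, adjusted p = 0.627). In HCT116 the authors' deposited tables gave -0.33 for the double knockdown (SE 0.21, adjusted p = 0.436), 0.089 for siMYBL1 (SE 0.21, adjusted p = 0.99997) and -0.34 for siMYBL2 (SE 0.23, adjusted p = 0.866). The double knockdown minus siMYBL2 difference in U2OS was -0.63 (95% interval -1.28 to 0.013, adjusted p = 0.940). Its error is too large, because the fold changes share siCtrl libraries.

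The annotated readthrough gene MSH5-SAPCD1 shares most of the MSH5 locus and its strand, so reads could be split between them. In the U2OS double knockdown the authors' deposited table gave it a log2 fold change of -0.87 (SE 0.34, adjusted p = 0.0698). Readthrough reads made up 28.1% of the sum of both genes in the U2OS double knockdown and 27.0% in siCtrl. The log2 ratio of the summed group means was -0.93 in the U2OS double knockdown, close to that of MSH5 alone. For siMYBL1 and siMYBL2 in U2OS the summed ratios were -0.53 and -0.26, and in HCT116 they were -0.34 in the double knockdown, 0.021 in siMYBL1 and -0.42 in siMYBL2.

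MSH4, on chromosome 1 at 75796882 to 75913242, could be followed in 1 table. Its group means were 21.1 normalized counts in HCT116 siMYBL1 against 15.4 in siCtrl. The authors' deposited table gave a log2 fold change of 0.45 (SE 0.86, adjusted p = 0.99997), with a 95% interval from -1.22 to 2.13. MSH5 and MSH4 act as a pair in meiosis, yet only MSH5 was listed in all 6 tables.

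**Figure D2:**
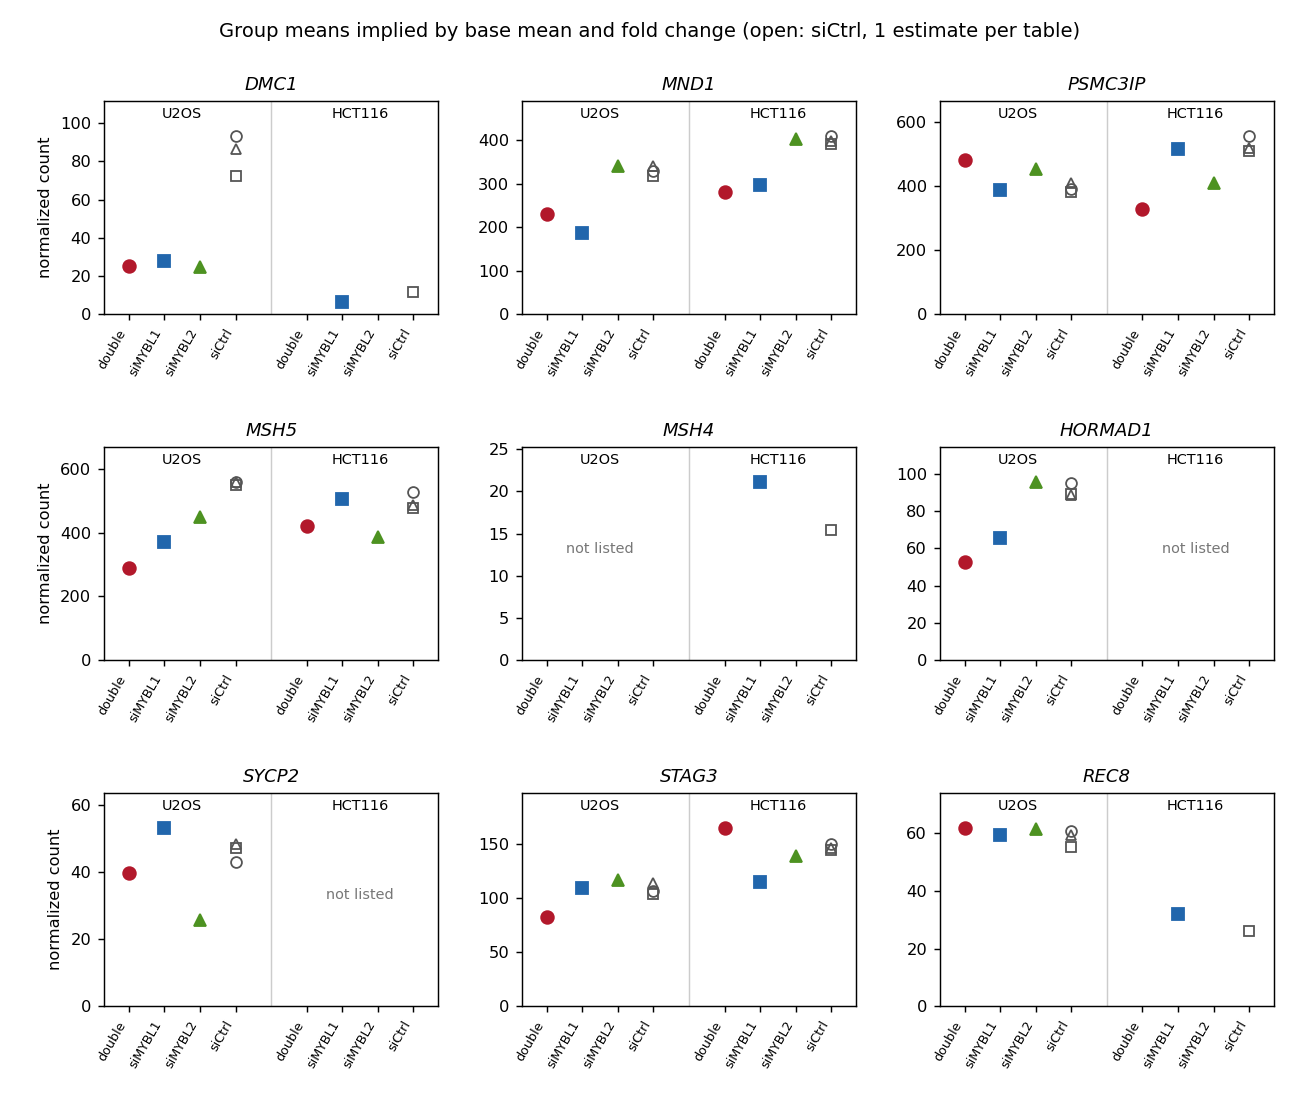
Group means in normalized counts (vertical axes, each from 0) are drawn for the 9 listed genes, filled for the knockdown groups and open for siCtrl, whose 3 symbols per line are estimates of the same 2 libraries from 3 tables. The DMC1 means of 25.1, 27.8 and 25.0 in the U2OS knockdown groups lie under the siCtrl estimates of 93.2, 72.2 and 86.5.

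HORMAD1, an axis protein that promotes break formation and pairing and is switched on in some tumours, lies on chromosome 1 at 150698060 to 150720895. HORMAD1 averaged 52.4 normalized counts in the U2OS double knockdown against 95.3 in siCtrl, 65.6 in U2OS siMYBL1 against 89.3, and 95.5 in U2OS siMYBL2 against 88.6. The means of the groups given siMYBL1 lay under siCtrl and the siMYBL2 mean above it. The authors' deposited tables gave log2 fold changes of -0.86 for the double knockdown (SE 0.46, unadjusted p = 0.0624, adjusted p = 0.252), -0.45 for siMYBL1 (SE 0.43, adjusted p = 0.700) and 0.11 for siMYBL2 (SE 0.42, adjusted p = 0.977). With these errors a log2 fold change of 1.26 to 1.30 in size was needed for a call. The estimated fall to 55.0% of siCtrl in the double knockdown was short of that.

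SYCP2, a core protein of the axial element, lies on chromosome 20 at 59863564 to 59933655. SYCP2 averaged 39.6 normalized counts in the U2OS double knockdown against 43.0 in siCtrl, 53.0 in U2OS siMYBL1 against 47.0, and 25.8 in U2OS siMYBL2 against 48.5. Only the siMYBL2 mean stood well away from siCtrl. The authors' deposited tables gave log2 fold changes of -0.12 (SE 0.65, adjusted p = 0.951), 0.17 (SE 0.59, adjusted p = 0.944) and -0.91 (SE 0.71, adjusted p = 0.700) in that order. The 95% interval of the siMYBL2 value ran from -2.30 to 0.48.

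Of the meiotic cohesin subunits, STAG3 was listed in all tables, REC8 in 4 and SMC1B in 0. STAG3, the meiotic counterpart of STAG1 and STAG2, lies on chromosome 7 at 100177563 to 100221488. Its group means were 82.8 normalized counts in the U2OS double knockdown against 106 in siCtrl, 109 in U2OS siMYBL1 against 103, and 117 in U2OS siMYBL2 against 114. In HCT116 they were 165 in the double knockdown against 150 in siCtrl, 115 in siMYBL1 against 144, and 139 in siMYBL2 against 146.5. The authors' deposited tables gave log2 fold changes from -0.36 (SE 0.44, U2OS double knockdown) to 0.13 (SE 0.34, HCT116 double knockdown), with adjusted p of at least 0.722, and 0 were called.

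STAG3 has near-identical partial copies elsewhere in the genome, and PVRIG on the same strand and CASTOR3 on the opposite strand overlap its end, so its values are uncertain. The copies STAG3L4 and STAG3L5P were listed in all 6 tables and were called in 0. In the U2OS double knockdown the authors' deposited table gave log2 fold changes of -0.30 for STAG3L4 (SE 0.33) and -0.36 for STAG3L5P (SE 0.32), near the -0.36 of STAG3. The copy STAG3L3, at a base mean of 22.0, had 1.31 (SE 0.86) there and was not called. In the authors' deposited U2OS siMYBL1 table STAG3L3 had 1.98 (SE 0.70, adjusted p = 0.0690) and STAG3L4 had 0.47 (SE 0.29). STAG3L5P had 0.030 (SE 0.29) and STAG3 had 0.077 in that comparison.

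REC8, the kleisin subunit that replaces RAD21 in meiotic cohesin, lies on chromosome 14 at 24171853 to 24180257. REC8 averaged 61.8 normalized counts in the U2OS double knockdown against 60.8 in siCtrl, 59.4 in U2OS siMYBL1 against 55.2, 61.5 in U2OS siMYBL2 against 59.4, and 31.9 in HCT116 siMYBL1 against 26.2. In U2OS every REC8 group mean lay within a few counts of siCtrl. The authors' deposited tables gave log2 fold changes of 0.024 (SE 0.50), 0.11 (SE 0.50) and 0.050 (SE 0.48) in U2OS and 0.29 (SE 0.71) in HCT116 siMYBL1, with adjusted p of at least 0.961. The 95% interval in the U2OS double knockdown ran from -0.96 to 1.01, which takes in -0.95, the value of MSH5. IPO4 overlaps the end of REC8 on the opposite strand. SMC1B, the meiotic partner of SMC3, had no value in any table.

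**Figure D3:**
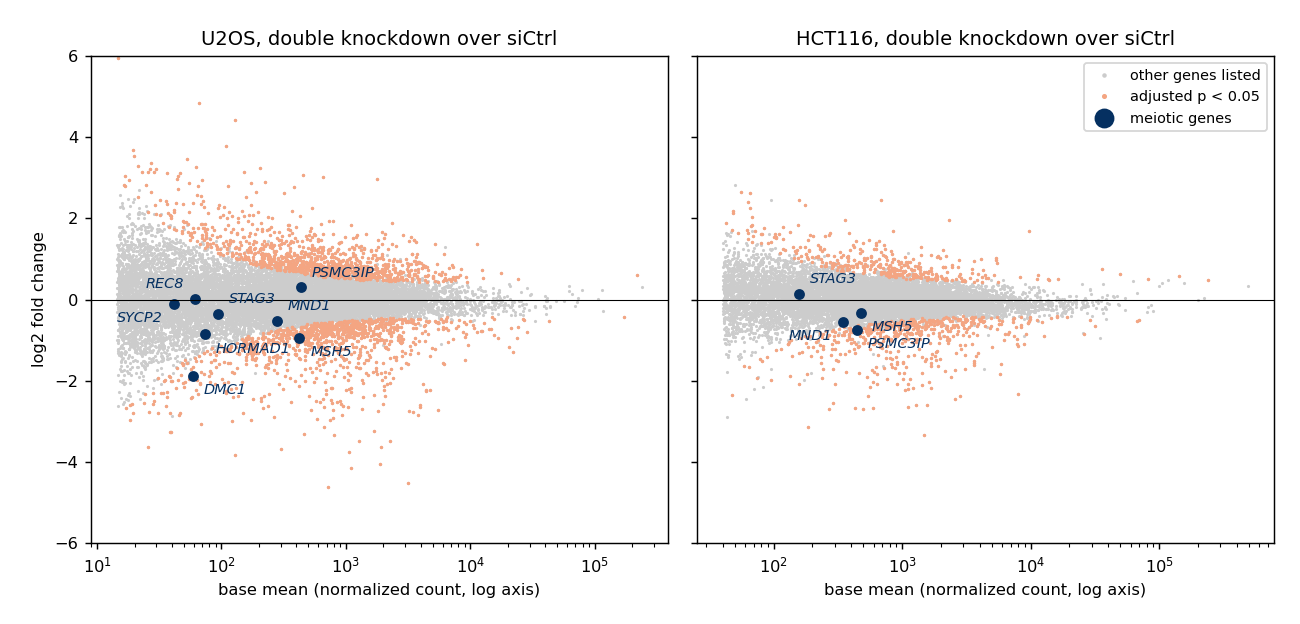
Log2 fold change (vertical axis) is plotted against base mean (horizontal log axis) for the genes of the U2OS and HCT116 double knockdown tables, with 13 and 2 genes beyond a log2 fold change of 6 in size not drawn. DMC1 and MSH5 in U2OS and PSMC3IP in HCT116 lie among the genes with an adjusted p under 0.05 (orange), and the spread of all genes widens toward low base means, where DMC1, SYCP2 and REC8 lie.

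Among mitotic paralogs of these genes, RAD21 and MAD2L1 fell in the U2OS double knockdown, and the MutS paralogs MSH3 and MSH6 were not called there. MAD2L1 is counted among the paralogs only for the HORMA fold it shares with HORMAD1. Of 7 paralogs, 2 were called lower in the U2OS double knockdown, 0 in U2OS siMYBL1, 1 in U2OS siMYBL2, 5 in the HCT116 double knockdown, 0 in HCT116 siMYBL1 and 0 in HCT116 siMYBL2, and 0 were called higher. Of all genes listed, 6.06% were called lower in the U2OS and 4.12% in the HCT116 double knockdown. In U2OS siMYBL2 5.2% of all genes were called in either direction.

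In U2OS log2 fold changes were 0.23 for MSH3 (SE 0.29) and -0.33 for MSH6 (SE 0.17) in the authors' deposited double knockdown table, and neither was called. RAD21, the mitotic kleisin, fell in both lines, by log2 fold changes of -1.05 (SE 0.16, adjusted p = 9.51e-09) in U2OS and -0.84 (SE 0.17, adjusted p = 2.82e-05) in HCT116 in the authors' deposited double knockdown tables, where REC8 was 0.024 in U2OS. In the authors' deposited U2OS siMYBL2 table RAD21 also fell, by -0.49 (SE 0.16, adjusted p = 0.0443). MAD2L1, a spindle checkpoint protein of the HORMA fold that HORMAD1 shares, fell by -0.81 (SE 0.20, adjusted p = 0.00133) in U2OS and -0.79 (SE 0.20, adjusted p = 0.00265) in HCT116 in the authors' deposited double knockdown tables.

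In the authors' deposited HCT116 double knockdown table, log2 fold changes were also called lower for the mismatch repair gene MSH6 (-0.53, SE 0.16, adjusted p = 0.0190) and the cohesin genes SMC1A (-0.51, SE 0.14, adjusted p = 0.0110) and STAG1 (-0.61, SE 0.18, adjusted p = 0.0198). MSH5 at -0.33 was not called there. STAG2 had -0.28 (SE 0.21) in U2OS and -0.29 (SE 0.15) in HCT116 in the authors' deposited double knockdown tables and was not called. SMC1A had a wide error in U2OS, with -0.054 (SE 0.50) in the authors' deposited double knockdown table. Differences between a meiotic gene and its paralog were not tested.

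**Figure D4:**
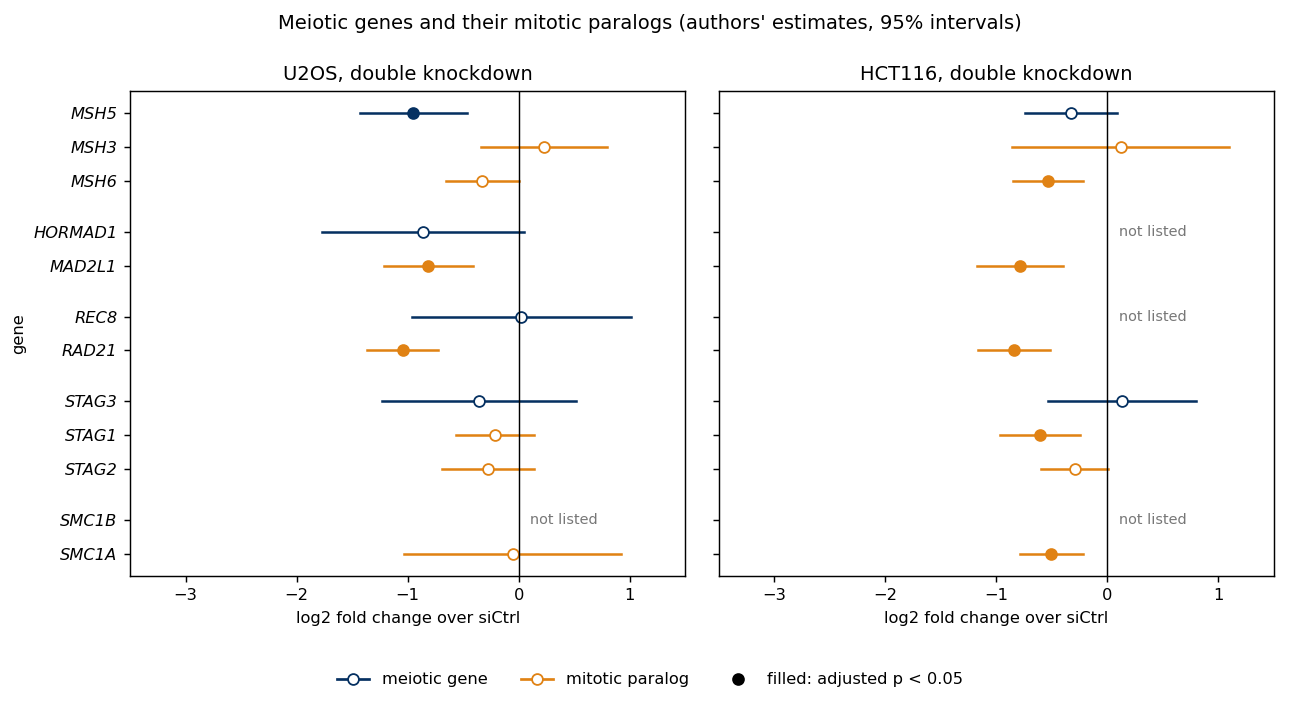
Log2 fold changes of the double knockdowns over siCtrl (horizontal axis, 95% intervals as lines) are drawn for meiotic genes (blue) above their mitotic paralogs (orange) in U2OS and HCT116, filled where the adjusted p was under 0.05. In U2OS MSH5 is filled while MSH3 and MSH6 are open, and in HCT116 MSH6 is filled while MSH5 is open. MAD2L1 is drawn below HORMAD1 only for the fold they share.

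Genes that work beside these paralogs in mitotic cells fell in part. Of 11 such genes, 3, 2 and 2 were called lower in U2OS after the double knockdown, siMYBL1 and siMYBL2, and 4, 0 and 0 in HCT116, with 0 higher. The share of all genes called lower was 6.06% in the U2OS and 4.12% in the HCT116 double knockdown. After siMYBL1 and siMYBL2 in U2OS, 5.71% and 5.2% of all genes were called in either direction. SGO1, which protects centromeric cohesin, fell by a log2 fold change of -1.68 (SE 0.22, adjusted p = 1.58e-12) in U2OS and -0.996 (SE 0.27, adjusted p = 0.00692) in HCT116 in the authors' deposited double knockdown tables. ESPL1, the separase that cuts RAD21, fell by -1.65 (SE 0.19) in U2OS and -1.59 (SE 0.18) in HCT116 in the authors' deposited double knockdown tables. SFR1, an accessory factor of strand exchange, fell in U2OS by -1.05 (SE 0.26, adjusted p = 0.00135) in the double knockdown and -1.29 (SE 0.34, adjusted p = 0.00535) in siMYBL1, in the authors' deposited tables. RAD54L and RAD54B, motor proteins of strand exchange, fell by -0.97 (SE 0.22, adjusted p = 0.000660) and -0.80 (SE 0.23, adjusted p = 0.00995) in the authors' deposited HCT116 double knockdown table.

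Most other genes of the meiotic program were not listed. Of 42 further genes for break formation, synapsis and crossing over, 17 were listed in at least 1 table, 25 in none and 5 in all 6. SPO11, which makes the breaks, PRDM9, which places them, and SYCP1 and SYCP3 of the synaptonemal complex were among those in none. In U2OS 14, 12 and 13 were listed after the double knockdown, siMYBL1 and siMYBL2, of which 2, 0 and 1 were called lower and 1, 2 and 0 higher. In HCT116 6, 15 and 6 were listed, of which 1, 0 and 0 were called lower and 1, 0 and 0 higher. Over all genes listed, 12.6%, 5.71% and 5.2% were called in either direction in U2OS, and 6.95%, 0.26% and 1.13% in HCT116.

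SHOC1, an endonuclease-like protein that works with the crossover machinery, had the lowest log2 fold change of that list. Its group means were 135 normalized counts in the U2OS double knockdown against 1188 in siCtrl, 738 in U2OS siMYBL1 against 1168, and 247 in U2OS siMYBL2 against 1223. The authors' deposited tables gave log2 fold changes of -3.14 for the double knockdown (SE 0.31, adjusted p = 1.56e-21), -2.31 for siMYBL2 (SE 0.69, adjusted p = 0.0215) and -0.66 for siMYBL1 (SE 0.60, adjusted p = 0.669). In HCT116 SHOC1 was listed only in the authors' deposited siMYBL1 table, at a base mean of 18.2.

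The other called genes of the list went both ways. SGO2, which guards cohesin in meiosis and also acts in mitosis, fell by a log2 fold change of -1.39 (SE 0.21, adjusted p = 1.97e-09) in U2OS and -1.43 (SE 0.22, adjusted p = 4.60e-09) in HCT116 in the authors' deposited double knockdown tables. MLH3, which resolves the intermediates held by MSH4-MSH5, rose by 1.06 (SE 0.33, adjusted p = 0.0156) in the U2OS double knockdown, 0.93 (SE 0.30, adjusted p = 0.0409) in U2OS siMYBL1 and 0.92 (SE 0.29, adjusted p = 0.0256) in the HCT116 double knockdown, in the authors' deposited tables. CCNB1IP1, a ligase that matures crossovers, rose by 0.82 (SE 0.23, adjusted p = 0.0112) in the authors' deposited U2OS siMYBL1 table. Of 18 genes of the piRNA pathway, another target set of MYBL1 in the mouse testis, 12 were listed in at least 1 table, 6 in none and 3 in all 6. The piRNA helicase gene MOV10L1 was the 1 call among them, higher by 1.61 (SE 0.54, adjusted p = 0.0280) in the authors' deposited U2OS double knockdown table. In that group 12.6% of all genes were called in either direction.

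The lines were compared by subtracting the HCT116 log2 fold change from that of U2OS, with the error combined from both tables. For the double knockdown 0 of 4 genes differed at an adjusted p under 0.05 and 1 had an unadjusted p under 0.05, with 1.27% of 12388 genes called. For siMYBL1 0 of 6 differed and 1 had an unadjusted p under 0.05, with 0.0594% of 13472 genes called. For siMYBL2 0 of 4 differed and 0 had an unadjusted p under 0.05, with 0.215% of 12566 genes called. Over all genes, 1176 of 12388, 645 of 13472 and 554 of 12566 had an unadjusted p under 0.05, in that order. PSMC3IP came nearest, with a difference of 1.06 after the double knockdown (SE 0.31, 95% interval 0.44 to 1.67, adjusted p = 0.0573).

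The call of PSMC3IP in HCT116 and not in U2OS therefore did not amount to a called difference between lines. For MSH5 the difference was -0.62 after the double knockdown (SE 0.32, 95% interval -1.25 to 0.017, adjusted p = 0.549) and -0.66 after siMYBL1 (SE 0.31, adjusted p = 0.938). For MND1 the difference after the double knockdown was 0.022 (95% interval -0.73 to 0.77) and for STAG3 it was -0.49 (95% interval -1.59 to 0.61). DMC1 and REC8 could be compared after siMYBL1 only, with differences of -0.50 (95% interval -3.25 to 2.25) and -0.18 (95% interval -1.88 to 1.52).

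**Figure D5:**
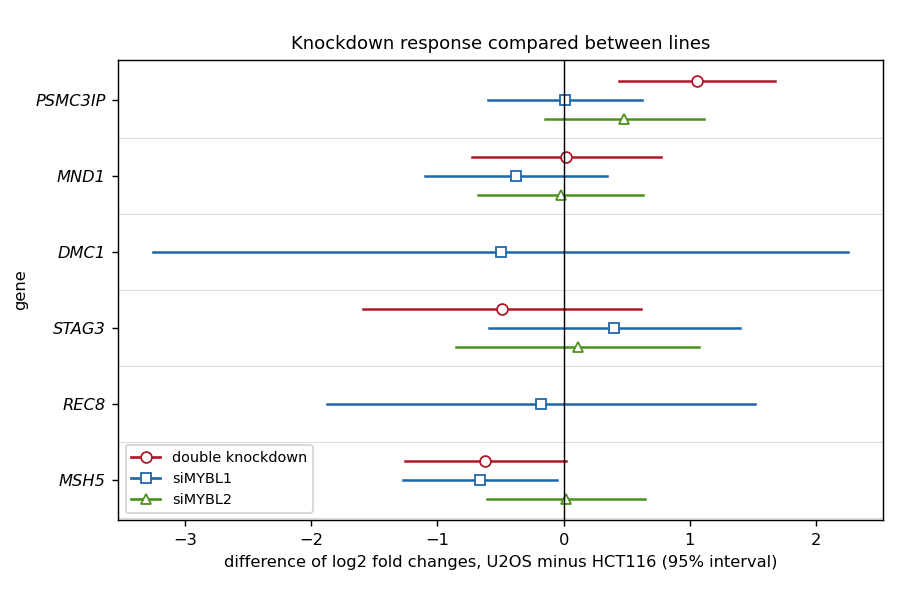
The difference of log2 fold changes, U2OS minus HCT116 (horizontal axis, 95% intervals as lines), is drawn for the 6 genes listed in both lines, by siRNA. The PSMC3IP interval after the double knockdown (0.44 to 1.67) and the MSH5 interval after siMYBL1 lie off 0, and neither difference was called after adjustment over all genes.

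Adding the second siRNA was examined as the double minus the single knockdown, both against the same siCtrl libraries. In U2OS 0 of 8 genes were called against siMYBL1 and 0 had an unadjusted p under 0.05, where 1.54% of all genes were called. Against siMYBL2 in U2OS 0 of 8 were called and 0 had an unadjusted p under 0.05, where 1.05% of all genes were called. In HCT116 0 of 4 were called against siMYBL1 and 1 had an unadjusted p under 0.05, where 1.28% of all genes were called. Against siMYBL2 in HCT116 0 of 4 were called and 0 had an unadjusted p under 0.05, where 0.645% of all genes were called. Over all genes in U2OS, 1028 of 14760 had an unadjusted p under 0.05 against siMYBL1 and 862 of 15476 against siMYBL2. In HCT116 these were 727 of 12885 against siMYBL1 and 418 of 12873 against siMYBL2. The shared controls cancel in such a difference, so the error used is too large.

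The gene under 0.05 was PSMC3IP, whose double knockdown minus siMYBL1 difference in HCT116 was -0.77 (SE 0.29, 95% interval -1.35 to -0.20, adjusted p = 0.334). Under a correlation of 0.5 between the 2 fold changes, which shared controls could give, its adjusted p was 0.00793. For MSH5 in U2OS the double minus siMYBL1 difference was -0.38 (95% interval -1.03 to 0.28), and for HORMAD1 the double minus siMYBL2 difference was -0.97 (95% interval -2.20 to 0.26).

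The genes whose 6 log2 fold changes lay nearest to those of the 4 genes in all tables were sought where every table had a base mean of 100 or more. For MSH5 they were MYO6 and RAVER2, at root mean square differences of 0.0742 and 0.0793 over the 6 comparisons, where the median over 10264 genes was 0.542. For MND1 they were VTA1 at 0.0845 and GDE1 at 0.0963, against a median of 0.518. For PSMC3IP they were LINC00869 at 0.120 and WDR76 at 0.121, against a median of 0.427. For STAG3 they were IFT81 at 0.0612 and FAM200A at 0.0899, against a median of 0.323. The 6 values of a gene share siCtrl libraries within each line, so this likeness is a description of these tables. The nearest genes were picked for their small differences, so lying under the median follows from that choice.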

How the data were processed

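The data are 6 tables of the authors' comparisons, each of 2 knockdown with 2 siCtrl libraries of the same line. cutadapt 4.4, Salmon 1.10.1, DESeq2 1.40 and hg38 are named in the submitters' processing notes, without settings. Their annotation, and whether strand was used, was not given in the sources used here. Per the file headers, the deposited base mean averages normalized counts over a table's libraries and was treated as a signal. The deposited log2 fold change is knockdown over siCtrl on the log2 scale, with its standard error. The deposited Wald score divides the fold change by its error. Each deposited p-value matched a 2-sided normal test of that score, and the authors' adjusted p-values matched a Benjamini-Hochberg adjustment over a table's genes. The depth of single libraries is unknown, and a count test or an SD per group was not possible from these tables. The design text calls the libraries biological replicates, and no label names separate cultures.

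Group means solve base mean and fold change for equal group sizes. Intervals are 1.96 standard errors. Differences of log2 fold changes were divided by the root of summed squared errors. Their 2-sided normal p-values were adjusted by Benjamini-Hochberg over all genes in both tables (Python 3.11.15, pandas 2.3.3, scipy 1.17.1). The calculation was run on simulated data in which both fold changes were drawn independently with the deposited errors. That run checks the calculation and cannot test the effect of shared controls. The 10 genes and all lists (42 further meiotic, 7 paralogs, 11 partners, 18 piRNA, 12 late cell cycle, 12 G1/S, 7 epithelial, 7 mesenchymal and 6 blood cell genes) were chosen with earlier results of these data known; some further paralogs are not reported here. Named were the 10 genes, MYBL1, MYBL2, the paralogs, up to 4 called genes per list and comparison by adjusted p, and the 2 nearest genes of each gene listed in all 6 tables; genes overlapping or copying a named gene, and unlisted genes, were named beyond that rule. Gene coordinates are those of the deposited tables (hg38); overlaps come from GENCODE release 29, and SMC1B was looked up there. Alternatives were an adjusted p of 0.01, a base mean of at least 100, genes in all 6 tables, median centring and a correlation of 0.5 for shared controls.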

Additional observations from a re-analysis of the deposited data

How the results depend on the processing

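Under an adjusted p of 0.01, 1 gene was called in the U2OS double knockdown in place of 2 (MSH5; DMC1 had an adjusted p of 0.0349) and 0 in the HCT116 double knockdown in place of 1 (PSMC3IP had 0.0120). With a base mean of at least 100, 1 gene was called in the U2OS double knockdown, where 3 were tested and DMC1 was not, and 1 was called over the genes that all 6 tables list, where 4 were tested. With a correlation of 0.5 for shared controls, 1 gene in place of 0 was called for the double knockdown minus siMYBL1 in HCT116: PSMC3IP, at -0.77 with an adjusted p of 0.00793. Median centring turned 2 differences between lines that lay near 0: MND1 after the double knockdown at -0.014 (0.022 without centring) and MSH5 after siMYBL2 at -0.0071 (0.021 without centring). The other 44 counts and 245 gene values kept their direction and their side of the threshold under the alternatives run.

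Over all genes, an adjusted p of 0.01 called 1352 in place of 2119 in the U2OS double knockdown, 418 in place of 843 in U2OS siMYBL1, 458 in place of 805 in U2OS siMYBL2, 506 in place of 895 in the HCT116 double knockdown, 24 in place of 45 in HCT116 siMYBL1 and 88 in place of 151 in HCT116 siMYBL2. Between lines it called 60 in place of 157, 1 in place of 8 and 9 in place of 27 for the double knockdown, siMYBL1 and siMYBL2, and for the double knockdown minus siMYBL2 it called 105 in place of 163 in U2OS and 53 in place of 83 in HCT116. A correlation of 0.5 called 810 in place of 227 and 636 in place of 163 against siMYBL1 and siMYBL2 in U2OS, and 533 in place of 165 and 235 in place of 83 in HCT116.

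No paired analysis was possible because the tables hold no values per library, and leaving out each library in turn was not run for the same reason. Genes of low base mean (DMC1, HORMAD1, SYCP2, REC8 and MSH4) had standard errors of 0.42 to 1.28, and a call needed a log2 fold change of at least 1.26 in size.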
